A study of Mus musculus with 6 samples.

Results

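miR-210 is the miRNA most widely used as a readout of low oxygen, and its hairpin gives rise to 2 mature arms, mmu-miR-210-3p and mmu-miR-210-5p. Both arms were picked by name from the 1881 mouse miRNAs on a one-colour Agilent array, so they are 2 of 1881, and the rule that picks them uses no measured value. The arrays measured RNA of exosomes, the small vesicles that cells shed, from the mouse macrophage line RAW 264.7. Exosomes of untreated cells were hybridised on 3 arrays (control) and exosomes of cells given lipopolysaccharide (LPS), the endotoxin of Gram-negative bacteria, at 2 µg/mL on 3 arrays (LPS). The vesicles were taken from culture supernatant by size-exclusion columns, after 72 h for LPS. No culture time is given for the control cells, so time and LPS cannot be told apart. All samples are of this 1 cell line, and nothing in the labels says that replicates were separate cultures, so the p-values speak only of the variation among these arrays, and that variation may be technical.

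The gene for miR-210 is switched on by hypoxia-inducible factor (HIF), the transcription factor that accumulates when oxygen is scarce, and the 3p arm is the guide strand that is loaded onto Argonaute. Known targets of miR-210-3p include Iscu, which helps assemble iron-sulphur clusters of the respiratory chain, and Efna3, a ligand that restrains vessel growth. In macrophages LPS also stabilises HIF-1α at normal oxygen, and miR-210 has been described as induced by LPS and as a brake on inflammatory cytokines through Nfkb1. No oxygen level, HIF protein or target mRNA was measured in this series.

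The sequences below are RefSeq's for mouse assembly GRCm38.p6 and show the 2 arms with the seed, bases 2 to 8 counted from the 5′ end, in capitals. The hairpin is shown with both arms in capitals, to place the arm that was measured beside the arm that was not detected.
miR-210-3p: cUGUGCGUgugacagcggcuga
miR-210-5p: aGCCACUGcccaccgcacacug
Mir210 hairpin: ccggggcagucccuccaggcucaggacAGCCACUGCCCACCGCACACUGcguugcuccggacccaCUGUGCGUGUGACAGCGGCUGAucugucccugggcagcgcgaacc
The hairpin lies on the minus strand at chr7:141221384-141221493, and both mature arms are 22 bases long. The 5p arm takes bases 28 to 49 of the hairpin and the 3p arm bases 66 to 87. None of the other mature names among 1679 in the RefSeq table shared the seed of either arm, so miR-210 has no seed family on this list. The gene table of the same assembly has no gene overlapping Mir210, and Rassf7, Lmntd2 and Phrf1 are among its nearest protein-coding neighbours. No other miRNA on the array has a probe within 1 Mb of the miR-210 probes in the coordinates of the files.

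Each arm was read by 2 probes of different length, which are complementary to its 3′ part. The probes are shown 5′ to 3′ as the files give them, with the base that the longer probe adds in capitals, because the results below are those of these 4 oligonucleotides.
miR-210-3p probe A_54_P1443: tcagccgctgtcacaC
miR-210-3p probe A_54_P1444: tcagccgctgtcaca
miR-210-5p probe A_54_P00005066: cagtgtgcggtg
miR-210-5p probe A_54_P00005067: cagtgtgcggtgG
The longer 3p probe pairs with bases 7 to 22 of the miRNA and the shorter with bases 8 to 22, so they touch 2 and 1 bases of the seed. The 5p probes pair with bases 11 to 22 and 10 to 22 and touch 0 bases of the seed. The complement of each probe was found in 1 mature name only, that of its own arm. By the files' own mm9 coordinates, the longer 3p probe maps to chromosome 7 at 148407355 to 148407369 and the longer 5p probe to 148407320 to 148407331. The files thus place the 5p arm below the 3p arm on the chromosome, whereas RefSeq, on another build, places it above, and the 2 builds were not reconciled here.

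The control and LPS arrays differed in brightness as a whole. The control arrays detected 213 to 228 miRNAs and the LPS arrays 412 to 446, and the 75th percentile of signal over the 198 miRNAs found on every array was 431 to 510 in control and 2022 to 2343 in LPS, a 4.67-fold difference (two-sided exact permutation p = 0.1, the smallest that 3 against 3 samples allow). Negative control spots did not follow this: they averaged 12.6 ± 2.62 on control and 10.9 ± 2.82 on LPS arrays (SD, n = 3 each; exact permutation p = 0.5). Arrays were therefore scaled to this percentile, and unscaled values are given beside scaled ones. All of the 4 fixed myeloid miRNAs, miR-223-3p, miR-142a-3p, miR-142a-5p and miR-342-3p, were detected on at least 1 array, and their summed scaled signal ran from 854 to 908 in control and from 1636 to 1730 in LPS. Of the markers of other cells, 0 of 4 erythroid and liver, 0 of 5 muscle, 1 of 6 epithelial and 3 of 4 neural miRNAs were detected on any array, and miR-124-3p, the defining neural one, was at the floor throughout. The other 3 neural miRNAs were called higher in LPS, as were 65.5% of the 412 miRNAs tested. miR-128-3p changed by 2.07 on the log2 scale. miR-219a-5p read 1.18 higher, but its control signal was too faint to size that change. It was at least 1.55-fold higher, or 1.25-fold with median centring. miR-9-3p read 0.40 higher, with no bound above 1. In control the summed signals of the 4 lists ran from 74.8 to 100.8, 72.3 to 80.3, 80.3 to 91.0 and 214 to 229. In LPS they ran from 52.0 to 52.0, 65.0 to 65.0, 86.2 to 88.2 and 623 to 627. The erythroid and liver list and the muscle list held no detected miRNA, and all their members were at the floor in LPS. Their sums therefore give no direction. In the epithelial list only miR-200c-3p was above the floor in LPS. The part of the neural miRNAs in any result was not tested.

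miR-210-3p was near background in control exosomes and bright in LPS exosomes. Before scaling, the longer probe read 20.1, 24.5 and 24.2 on the 3 control arrays and 1803, 2072 and 2198 on the 3 LPS arrays. The shorter probe read 13.1, 14.9 and 14.9 on the control arrays and 1221, 1556 and 1611 on the LPS arrays. With either probe every LPS array lay far above every control array, and the groups did not overlap at the level of single spots. The control readings of the longer probe were 20.1 to 24.5 where the negative control spots of the same arrays averaged 10.5 to 15.6 with an SD of 6.75 to 8.62 between spots.

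The 15 spots per probe and array show how firmly each group was read. On the LPS arrays the coefficient of variation between spots of the longer probe was 2.41% to 6.96%, and its single spots ran from 1594 to 2291. On the control arrays it was 14.01% to 23.1%, with single spots from 11.0 to 33.6. The LPS spots were thus read more precisely than the control spots. Well above background, a flag of the scanner software, was set for 43 of 43 spots used in LPS and 1 of 43 in control.

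The software calls a miRNA detected when a probe's total signal exceeds 3 times its error. For the longer probe that ratio was 2.78 on control 1, 3.51 on control 2 and 3.20 on control 3. miR-210-3p was therefore called detected on 2 of the 3 control arrays and missed narrowly on the other, while the ratio on the LPS arrays was 9.97 to 9.99. The shorter probe stayed at 1.85 to 2.23 on the control arrays and would not have been called by itself.

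**Figure D1:**
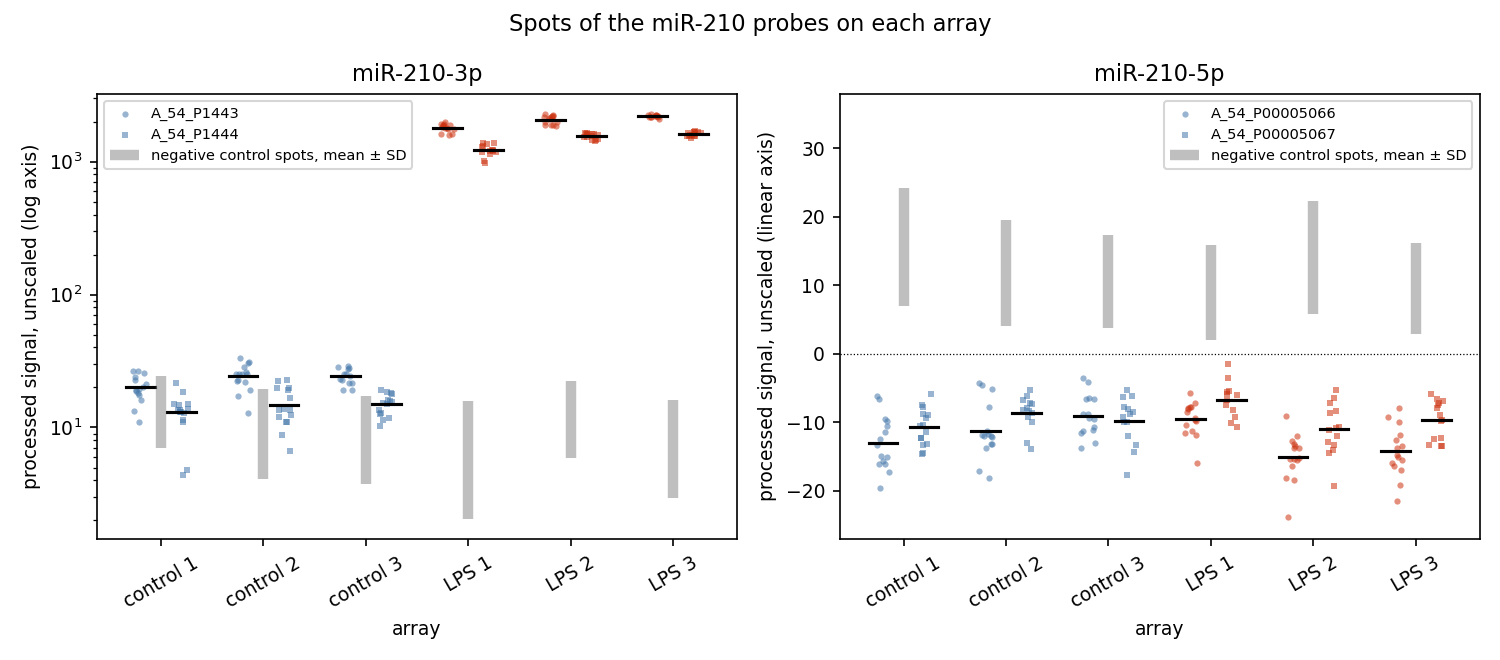
Processed signal of each spot used, before scaling, for the 2 probes of miR-210-3p (left, log axis) and of miR-210-5p (right, linear axis) on the 3 control (blue) and 3 LPS (red) arrays. Black lines are probe means and grey bars are the mean ± SD of the negative control spots. The miR-210-3p spots sit at 4.37 to 33.6 in control and 973 to 2291 in LPS, while all miR-210-5p spots lie below 0.

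After scaling, miR-210-3p was 63.0, 64.9 and 66.9 on the control arrays and 1206, 1197 and 1281 on the LPS arrays. Scaling narrowed the spread within each group, and the groups remained apart. On the log2 scale controls averaged 6.02 ± 0.04 and LPS arrays 10.26 ± 0.05 (SD, n = 3), so miR-210-3p rose by 4.24 (SE 0.05, or 18.9-fold, with a Benjamini-Hochberg adjusted p = 4.71e-09 from limma), higher in 3 of 3 LPS arrays than in every control. Because no control array held it well above background, the size is better given as a bound. The lowest signal that counted as well above background on each control array was 31.1 to 34.4 before scaling. Set against that signal, miR-210-3p was at least 13.4-fold higher in LPS with this scaling, or 10.8-fold with median centring. Normexp, described below, gave a change of 5.35-fold, less than either bound. miR-210-3p passed the detection filter through the LPS group, where it is high.

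Of the 412 miRNAs tested, 270 were called higher in LPS, so a higher call by itself had a background of 65.5%, and among the 179 tested miRNAs well above background in both groups the share was 57.5%. The 198 miRNAs found on every array had a median change of 0.77, and miR-210-3p, with its control signal as measured, stood 3.47 above it (11.1-fold). Of the 60 miRNAs called higher that had a bound above 1, miR-210-3p had the highest bound with this scaling, followed by miR-103-3p at 5.28-fold and miR-202-3p at 5.19-fold. The lowest signal well above background is common to the miRNAs of an array, so this order largely follows brightness in LPS. By measured change miR-210-3p ranked 3 of the 412. It ranked 1 without scaling, 15 with the gene total signal and 78 with the dimmest probe.

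Its 2 probes moved the same way. With the same scaling the longer probe changed by 4.24 and the shorter by 4.45 on the log2 scale (exact permutation p = 0.1 each). The shorter probe read 41.0, 39.5 and 41.2 in control and 817, 899 and 939 in LPS. The changes differed by 0.20 on the log2 scale, with no overlap between the LPS and control arrays (exact permutation p = 0.1). In control 0 of 45 spots of the shorter probe were well above background. Before scaling it read 13.1 to 14.9 there, where the negative control spots averaged 10.5 to 15.6. The size of its change and the difference between the probes therefore rest on control readings at background.

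The other arm, miR-210-5p, the passenger strand, was not detected on any of the 6 arrays. Its longer probe averaged −10.7, −8.58 and −9.80 on the control arrays and −6.67, −11.0 and −9.68 on the LPS arrays before scaling. The shorter averaged −12.9, −11.2 and −8.99 in control and −9.51, −15.1 and −14.2 in LPS. The groups overlapped with both probes, and all means lay below 0 and below the negative control spots, after the software's background subtraction. Of the 45 spots of the longer probe on the LPS arrays, 1 was flagged well above background and 3 as positive and significant, and all of these were among the 5 that the software marked as outliers, which were left out. Every value of miR-210-5p was set to the floor of 13.0 (3.70 on the log2 scale), so it was not tested and has no direction. With these probes of 12 and 13 bases it was not detectable, which does not show that it was absent.

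The change was also set against that of single macrophage miRNAs within each array, which does not depend on how arrays were scaled. For these 4 comparisons the log2 signal of miR-210-3p minus that of the other miRNA was compared between the groups, taking the control reading of miR-210-3p as measured. Against miR-155-5p, which activated macrophages make in quantity, the difference was −0.93, −0.67 and −0.64 in control and −0.68, −0.74 and −0.64 in LPS. The groups overlapped, and the change of miR-210-3p minus that of miR-155-5p was 0.06 (exact permutation p = 0.9, adjusted p = 0.9). It was −0.03 without control replicate 1, and it ranged from −0.45 with normexp to 6.72 with the gene total signal, so no difference in size between the 2 changes can be called. With the gene total signal miR-155-5p itself turned lower in LPS (−1.04).

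Against 3 other LPS-responsive miRNAs the excess is given first with the control signal of miR-210-3p as measured, which was not well above background. The change of miR-210-3p exceeded that of miR-146a-5p, which dampens signalling through Irak1 and Traf6, by 2.90 (7.46-fold) and that of miR-21a-5p, an abundant anti-inflammatory miRNA, by 2.88 (7.39-fold). Against miR-146b-5p, a relative of miR-146a, the excess was 1.19 (2.28-fold), and with the gene total signal miR-146b-5p turned lower (−1.79). With the control signal of miR-210-3p raised to the lowest signal well above background on each array, a setting chosen after seeing the data, the excess was at least 5.28-fold over miR-146a-5p, 5.23-fold over miR-21a-5p and 1.61-fold over miR-146b-5p. In that setting the difference from miR-155-5p was −0.44. With normexp miR-210-3p rose by 2.42, miR-146a-5p by 1.44, miR-21a-5p by 1.47 and miR-146b-5p by 2.06. Each excess was then smaller than these minimums, which therefore do not hold for normexp. In each of the 3 comparisons with the measured signal the LPS arrays lay above the control arrays without overlap, with exact permutation p = 0.1 and adjusted p = 0.133, above the 0.05 threshold that 3 against 3 arrays cannot reach.

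**Figure D2:**
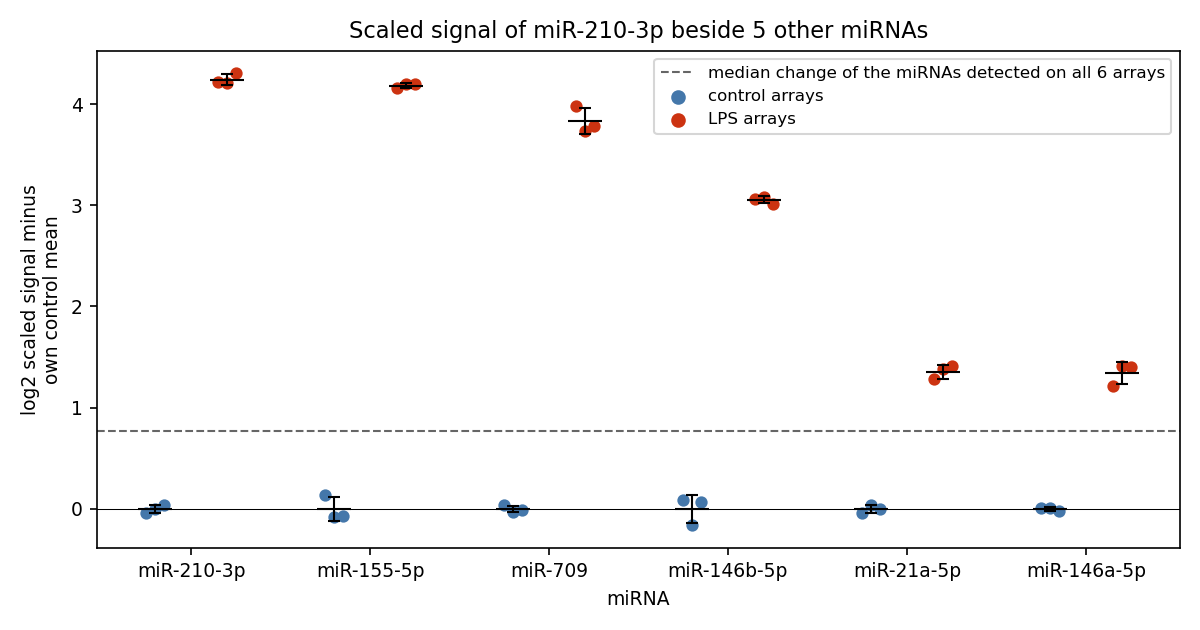
Log2 scaled signal of miR-210-3p and 5 other miRNAs on each array, shown as the difference from the miRNA's own control mean, for control (blue) and LPS (red) arrays, with group mean ± SD (n = 3). The dashed line marks the median change of 0.77 over the 198 shared miRNAs. miR-210-3p and miR-155-5p sit at 4.24 and 4.18, above miR-146b-5p at 3.05 and miR-21a-5p and miR-146a-5p at 1.36 and 1.34.

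The 5 tested miRNAs whose profile over the 6 arrays was most like that of miR-210-3p were named by the smallest root mean square difference, each profile centred on its own mean. They were miR-1906 (0.0738), miR-6360 (0.0749), miR-155-5p (0.101), miR-709 (0.225) and miR-467f (0.246), in log2 units over 6 samples. miR-1906 and miR-6360 were at the floor on all 3 control arrays, so their likeness depends on where the floor lies. They were at least 2.65-fold and 2.68-fold higher in LPS with the reported scaling. With normexp they rose by 0.64 and 0.74 on the log2 scale, less than these bounds. miR-155-5p was the one nearest to miR-210-3p that was well above background on all arrays, at 6.91, 6.69 and 6.70 in control and 10.92, 10.96 and 10.96 in LPS on the log2 scale. miR-709 was at 10.05, 9.99 and 9.999 in control and 13.99, 13.75 and 13.80 in LPS. These values describe 2 groups of arrays, where any miRNA with a change of similar size looks alike.

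Most other miRNAs reported to rise in hypoxia were also called higher in LPS exosomes. Of the 15 on this list, which leaves out miR-210, 14 were tested and 13 of them passed as higher, against the 65.5% of all miRNAs tested. The median change of the 14 was 1.64, against 0.85 over all 412 tested. Of the 14, 8 were well above background in both groups and all 8 of those passed as higher, against 57.5% of such miRNAs. On the list of LPS-induced macrophage miRNAs 12 were tested and 12 passed as higher, against the same 65.5%, with a median change of 2.00. Of those 12, 3 had no readable direction. All 4 myeloid and all 3 tested neural miRNAs passed as well, so such a count is not particular to the hypoxia list. A list of this kind overlaps with the miRNAs that LPS induces, since miR-155-5p and miR-21a-5p are on both, and all members were chosen with results known.

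The 5 listed miRNAs of the miR-23, miR-24 and miR-27 clusters rose, by 1.22 to 1.71 on the log2 scale. miR-23a-3p rose by 1.67 (SE 0.05), miR-23b-3p by 1.71 (SE 0.04), miR-27a-3p by 1.34 (SE 0.04), miR-27b-3p by 1.61 (SE 0.06) and miR-24-3p by 1.22 (SE 0.04). miR-107-3p, from an intron of a pantothenate kinase gene, rose by 1.32 (SE 0.04). Its near-twin miR-103-3p, not well above background on any control array, was at least 5.28-fold higher, or 4.24-fold with median centring. With normexp miR-103-3p rose by 1.11 on the log2 scale, less than either bound. As the mature sequences of the pair are nearly identical, their probes may share signal.

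miR-26b-5p was at least 5.14-fold higher in LPS, or 4.12-fold with median centring, and miR-26a-5p at least 1.24-fold higher. With normexp miR-26b-5p rose by 1.03 on the log2 scale, less than either of its bounds. Of the remaining tested members, miR-181a-5p and miR-181b-5p passed as higher but had no bound above 1, so their direction is not readable. miR-322-5p, which stabilises HIF-1α by lowering a ubiquitin ligase subunit, was at 5.22 ± 0.21 in control and 5.30 ± 0.04 in LPS (SD, n = 3) and did not pass (adjusted p = 0.484 in limma), with a change of 0.08 that fell below 0 in 4 alternatives. The list count ran from 10 to 14 over the alternatives. With normexp miR-26a-5p (−0.30), miR-181a-5p (−0.54) and miR-181b-5p (−0.65) turned lower, with the gene total signal miR-155-5p (−1.04) and miR-26b-5p (−0.65) turned lower, and with median centring the bound of miR-26a-5p fell to 0.996.

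**Figure D3:**
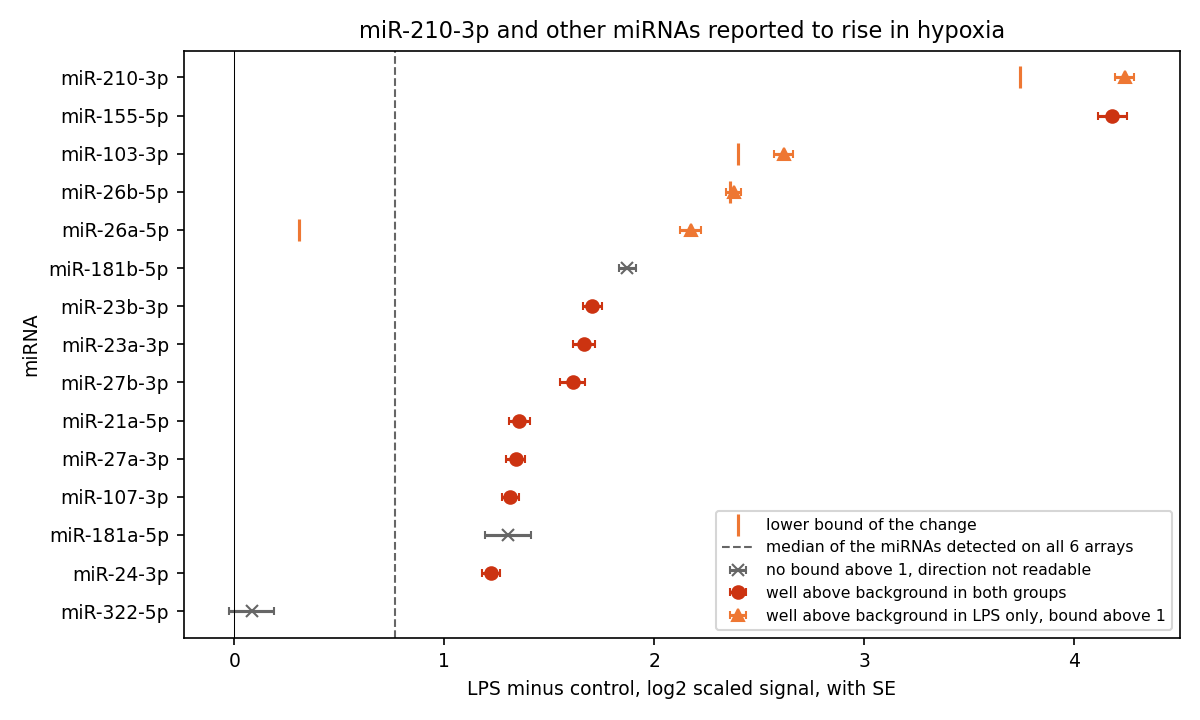
Log2 change, LPS minus control, with SE, for miR-210-3p and the 14 tested members of the hypoxia list. Circles are miRNAs well above background in both groups, triangles those well above background in LPS only, with a tick at the lower bound, and crosses those with no bound above 1. miR-210-3p, at 4.24 with its bound at 3.74, and miR-155-5p, at 4.18, stand apart from the circles at 1.22 to 1.71.

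A further list held 10 miRNAs described as acting on HIF or its hydroxylases. Of these 6 were tested and 6 passed as higher, against 65.5% of all miRNAs tested, with a median change of 1.45 against 0.85. Of the 6, 4 were well above background in both groups and passed as higher, against 57.5% of such miRNAs. Another 4 (miR-31-5p, miR-135b-5p, miR-199a-5p and miR-429-3p) were detected on no array. miR-20a-5p rose by 1.54 (SE 0.04), miR-20b-5p by 1.36 (SE 0.05) and miR-18a-5p by 1.68 (SE 0.05), all from the miR-17-92 cluster and its relatives. miR-22-3p rose by 0.83 (SE 0.04), beside the median of 0.77 over the 198 shared miRNAs. miR-17-5p was at least 2.34-fold higher, or 1.88-fold with median centring. With normexp it rose by 0.42 on the log2 scale, less than either bound. miR-138-5p was well above background in neither group, so its direction is not readable.

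The direction of miR-210-3p held in each of the 24 alternatives that gave it a value, and its size moved with the scaling. Without scaling it changed by 6.47 (88.4-fold, bound 62.6-fold), with scaling to 4 spiked-in RNAs by 6.64 (99.8-fold, bound 71.4-fold) and with the 75th percentile over all miRNAs by 5.43 (43.2-fold, bound 30.6-fold). The median of shared miRNAs moved with it, to 2.99, 3.18 and 1.96, so that miR-210-3p stood 3.47, 3.46 and 3.47 above it. Normexp, which adds an offset of 50 before the log, gave 2.42 (5.35-fold), or 2.31 above the median. Median centring gave 3.92 (15.2-fold, bound 10.8-fold) and quantile normalization 3.77 (13.7-fold). Higher calls made up 71.1% of all calls, and 85.1%, 90.3%, 90.7% and 28.5% with the percentile over all miRNAs, no scaling, spiked-in RNAs and normexp.

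The software's gene total put miR-210-3p at 2.14, 5.19 and 5.14 on the control arrays, where the first value equals its own error because the miRNA was not detected there, and at 868, 1063 and 1098 on the LPS arrays. From these totals the change was 5.60 (SE 0.26, adjusted p = 7.49e-06 in limma). The effective feature size fraction that enters those totals also moved with the groups, at 0.6 on the 3 control arrays and 0.812 to 0.829 on the LPS arrays, and its part in this value was not tested. In the authors' value table miR-210-3p was 4.51, 5.35 and 4.73 in control and 9.92, 9.92 and 10.004 in LPS on the log2 scale, a change of 5.09 (SE 0.21). miR-210-5p in that table was 2.53 to 2.54 in control and 2.51 to 2.54 in LPS, below the column medians of 2.73 to 2.74.

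The slide position of arrays was tied to the groups in part, since LPS 1 and the 3 controls were in slide row 1 and the other LPS arrays in row 2. Within row 1 miR-210-3p changed by 4.25 (SE 0.05, adjusted p = 1.45e-04 in limma, where only the controls have replicates), and with row as a block by 4.22 (SE 0.06).

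**Figure D4:**
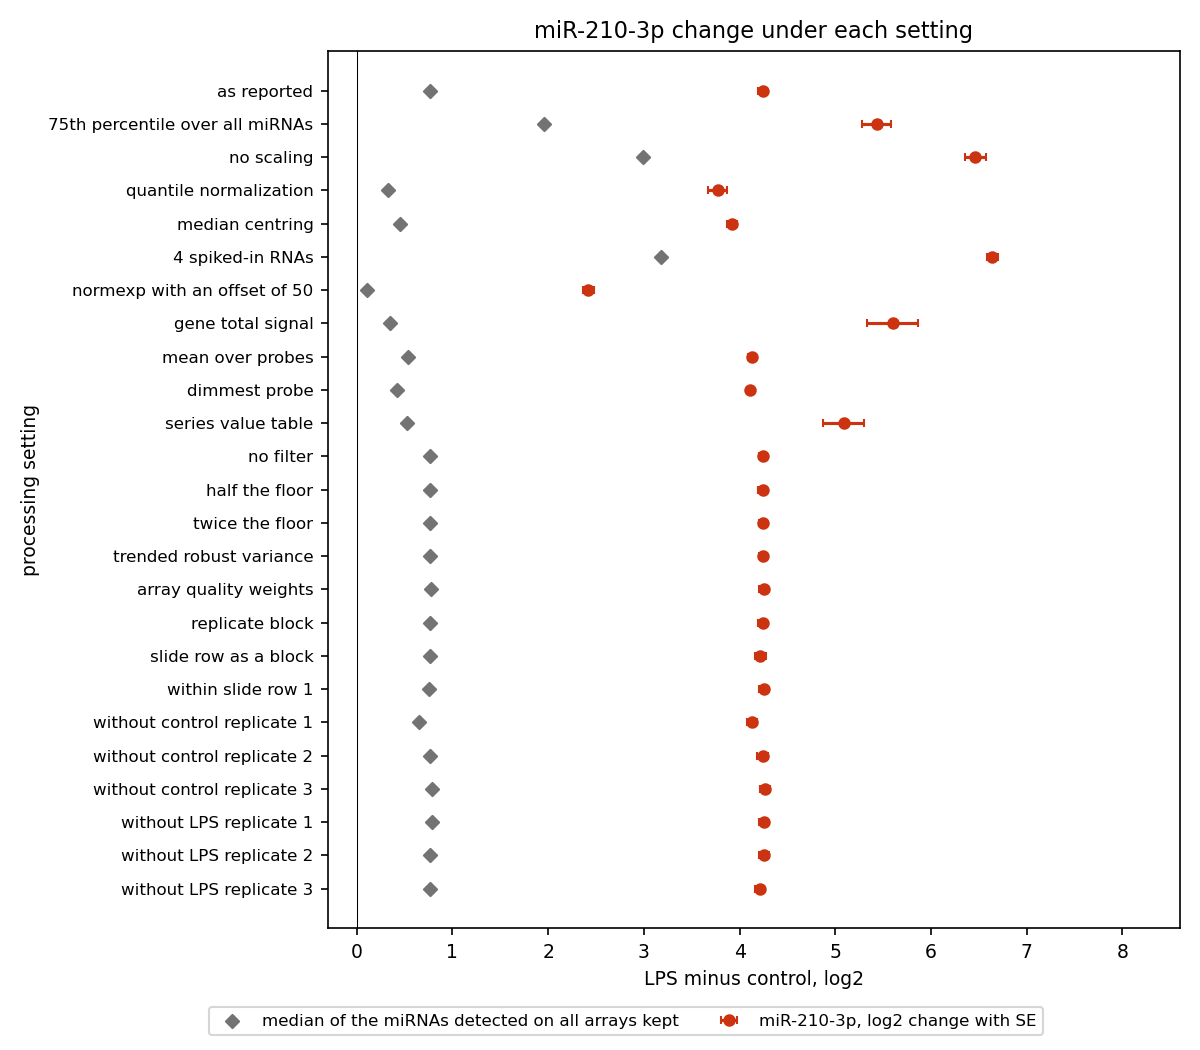
Log2 change of miR-210-3p, LPS minus control, with SE (red) and the median change of the miRNAs detected on all arrays kept (grey) under each processing setting. The red points run from 2.42 with normexp to 6.64 with the spiked-in RNAs, and lie to the right of the grey points under every setting drawn.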

How the data were processed

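Per the file headers, each array was deposited as linear intensity values from Agilent Feature Extraction 10.7.1.1, background-subtracted per spot; the submitters' processing notes name version 9.1. A series value table from the authors looks log2-scaled, and how it was normalized is unknown here; across detected miRNAs its columns correlated with the scanner signals at r = 0.903 to 0.972. Spots of a probe were averaged without control and outlier spots. The brightest probe represented a miRNA, and a probe was well above background on an array when over 50% of its spots were flagged so. Arrays were divided by the 75th percentile of the 198 miRNAs found on every array, floored at 13.0 (the median over arrays of the lowest detected value) and log2-transformed. miRNAs detected on all arrays of at least 1 group were tested with limma 3.58.1 in R 4.3.3. The number of arrays limits the precision. On simulated data over 412 miRNAs 88% of log2 changes of 0.5 and 98% of those of 1 were recovered. There 5 of 212 unchanged miRNAs were called. In the measured data 270 of the 412 were called higher and 110 lower, so these rates need not hold for them. Bounds divide the LPS mean by the higher of the control signal and the lowest signal well above background. They were not computed for normexp. The arms, lists and tests were chosen with earlier results of these data known. The named miRNAs are the arms, tested members of both hypoxia lists, the first 4 of the LPS-induced list and the 5 most alike; miR-202-3p, the neural markers and the untested list members were added after their values were seen. Alternatives changed the scaling, background correction, signal, probe, source, filter, floor, variance, blocks and replicates kept.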

Additional observations from a re-analysis of the deposited data

How the results depend on the processing

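miR-210-3p kept its direction and its call in all 24 alternatives that gave it a value, from 2.42 to 6.64 (adjusted p up to 1.45e-04 in limma), and from 4.13 to 4.27 when 1 replicate was left out. The filter on miRNAs detected on all 6 arrays leaves it out, so that setting gave no value. miR-210-5p, at the floor in 6 of 6 arrays, left 0 with normexp (−0.39) and in the value table (−0.013) only. The counts over all miRNAs were 113 higher and 284 lower with normexp, 59 lower with the all-miRNA percentile, 38 with spiked-in RNAs, 39 with no scaling and 269 with no filter, against 270 and 110, and 115 higher over miRNAs detected on all arrays. Leaving out 1 replicate gave 264 to 272 higher and 108 to 119 lower, and 13 in each case for the hypoxia list. The change of miR-210-3p minus that of miR-155-5p was −0.45 with normexp, 6.72 with gene totals, 0.30 with the mean over probes, 0.79 with the dimmest probe, 1.09 in the value table, −0.44 with control miR-210-3p raised to the lowest signal well above background (chosen after seeing the data) and −0.03 to 0.11 without 1 replicate; the causes were not tested. Same-numbered replicates did not deviate together (r = −0.40, −0.22 and −0.28), and with the replicate block miR-210-3p was at 4.24 with 270 higher and 110 lower; it changed no call of a named list miRNA. The control signal over background limits every fold of miR-210-3p.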

Other observations

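miR-210 belongs to the hairpins of which 1 arm was found. Of 723 hairpins with both arms on the array, 49 had both arms detected on at least 1 array, 73 the 3p arm only, 158 the 5p arm only and 443 neither. miR-210 is 1 of the 73, so that among the 122 hairpins with a detected 3p arm most lacked a detected 5p arm, as miR-210 did. The 443 hairpins with neither arm lacked it too, so an undetected 5p arm is not particular to hairpins with a detected 3p arm.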
